A study of Mus musculus with 9 samples.

Results

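The messenger RNA pool of the wild-type, fully grown mouse oocyte was described from the 3 libraries labelled WT, out of 9 libraries in the series. All 24228 rows of the expression table that carry a gene symbol were ranked by their mean over WT 1, WT 2 and WT 3. The oocytes were at the germinal vesicle stage and came from large antral follicles of C57BL/6 females that had received 5 IU of PMSG, a gonadotropin that drives follicle growth, 46 h before collection. The sample labels give an age of 6 months and the series' design text gives 23 days, so the age of these females is uncertain. The other 6 libraries came from females with an oocyte-specific deletion of Mtor and were not used. The labels do not say whether the WT females carried floxed alleles without Cre, how many oocytes went into a library or whether the libraries came from separate animals, so the spread given here is that between these libraries. RNA was amplified by Smart-seq2, a method for very small RNA amounts that primes on poly(A) tails. Levels are in FPKM, fragment numbers scaled to transcript length and library size, a unit per length in which genes can be compared with each other.

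A fully grown oocyte builds up a store of maternal messages during its growth and then falls transcriptionally silent. Meiotic maturation, fertilisation and the first cleavage run on this store, part of which is kept untranslated until needed and most of which is destroyed before the embryonic genome takes over. Among the best known products are the growth factors by which the oocyte directs its surrounding granulosa cells, the zona pellucida glycoproteins of the egg coat, and maternal-effect proteins that the embryo needs before it makes its own.

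The 3 libraries were of similar but low depth. Low FPKM values fell on steps worth 1, 2 or more fragments. Fragments estimated per gene from these steps and the annotated transcript length summed to about 771000, 600100 and 632000 for WT 1, WT 2 and WT 3. By the definition of FPKM, the step size alone gives lower totals, with WT 3 and not WT 2 the lowest. The fragment numbers used here are therefore rough and may be too high. The FPKM sums were 718684, 584503 and 654424. WT 1 stood apart from the other libraries. Among 890 genes with a mean of at least 100 FPKM, WT 1 lay more than 1.5 times above both other libraries at 137, against 2 for WT 2 and 25 for WT 3. After scaling to equal FPKM sums, WT 1 lay that far above at 76 genes and that far below at 74, so its difference was in composition as well as in total. The row Rn45s, the precursor of ribosomal RNA, moved with this difference: it was listed at 6038, 714 and 152 FPKM. Its part in the difference was not tested. Values without WT 1 are given below for the genes and shares it moved most.

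The 4 oocyte markers were all among the 100 highest genes by mean. Gdf9, the growth factor through which the oocyte directs granulosa cells, was at 16933, 15466 and 17655 FPKM in WT 1, WT 2 and WT 3. Its mean of 16684.5 FPKM was the highest of all genes, and it ranked first in WT 2 and WT 3 and second in WT 1. Bmp15, the paralog with which GDF9 acts, was at 3048, 2374 and 2359 FPKM and ranked 35. Zp3, the zona glycoprotein that carries sperm-binding sites, was at 1322, 1061 and 1199 FPKM and ranked 86. Ooep, a subunit of the subcortical maternal complex, was at 1690, 598 and 574 FPKM and ranked 100. Its level in WT 1 was 2.88 times the mean of the other libraries, and without WT 1 its mean fell from 954 to 586 FPKM. It ranked 74 in WT 1, 135 in WT 2 and 174 in WT 3, so its place in the highest 100 rested on WT 1. The other 3 markers had WT 1 within 1.5 times of both other libraries.

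Most markers of the cells around the oocyte were near the floor of the measurement. Of 20 granulosa and cumulus markers, 10 were listed at 0 in all 3 libraries, among them Amh, Foxl2, Fst, Hsd17b1, Inhbb and Lhcgr. That count is near the share over all rows, of which 45.6% were listed at 0 in all 3 libraries. The list summed to 0.0129%, 0.0189% and 0.0215% of the FPKM sum in WT 1, WT 2 and WT 3, and its median was 0.084 FPKM against 0.29 over all rows. Esr2, estrogen receptor beta, was the exception, at 72.3, 77.2 and 107 FPKM. Cyp19a1, the aromatase that makes estrogen, was next at 16.5, 25.7 and 25.6 FPKM. Theca and stroma markers held 0.00495% of the pool, with Dcn, a matrix proteoglycan, highest at 16.3 FPKM, and the steroidogenic genes Cyp11a1, Cyp17a1 and Insl3 listed at 0. Endothelium markers held 0.00289%, led by Pecam1 at 15.4 FPKM. Blood and immune markers held 0.0252%, led by C1qb, a complement subunit, at 93.3 ± 13.4 FPKM. Lyz2, lysozyme, was at 40.4, 36.2 and 43.0 FPKM, C1qa at 10.1 FPKM and the globin gene Hbb-b1 at 9.90 FPKM, while Ptprc, which marks all white blood cells, was above 0 in WT 2 alone at 0.81 FPKM. The source of the messages above the floor was not tested. In such bulk libraries, few cells of a type and little RNA from each cannot be told apart.

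The pool was concentrated in few genes. The 10 highest genes held 16.0% ± 0.35 (SD, n = 3) of the FPKM sum, the 30 highest 28.3% ± 0.33 and the 100 highest 46.3% ± 1.49. Gdf9 alone held 2.57% ± 0.18. It took 113, 142 and 130 genes in WT 1, WT 2 and WT 3 to reach 50% of the sum, and 1873, 2323 and 2108 genes to reach 90%. Without WT 1 the 100 highest genes held 45.7% and 136 genes reached 50%. A mean of at least 1 FPKM was reached by 9743 genes, 40.2% of all rows, a mean of at least 100 FPKM by 890 and a mean of at least 1000 FPKM by 97. These 97 genes held 45.9% of the sum. At the other end, 11036 rows were listed at 0 in all 3 libraries, and 9057 were above 0 in all 3. The 1865 and 2270 genes above 0 in 2 libraries and in 1 library held 0.464% and 0.230% of the pool.

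**Figure D1:**
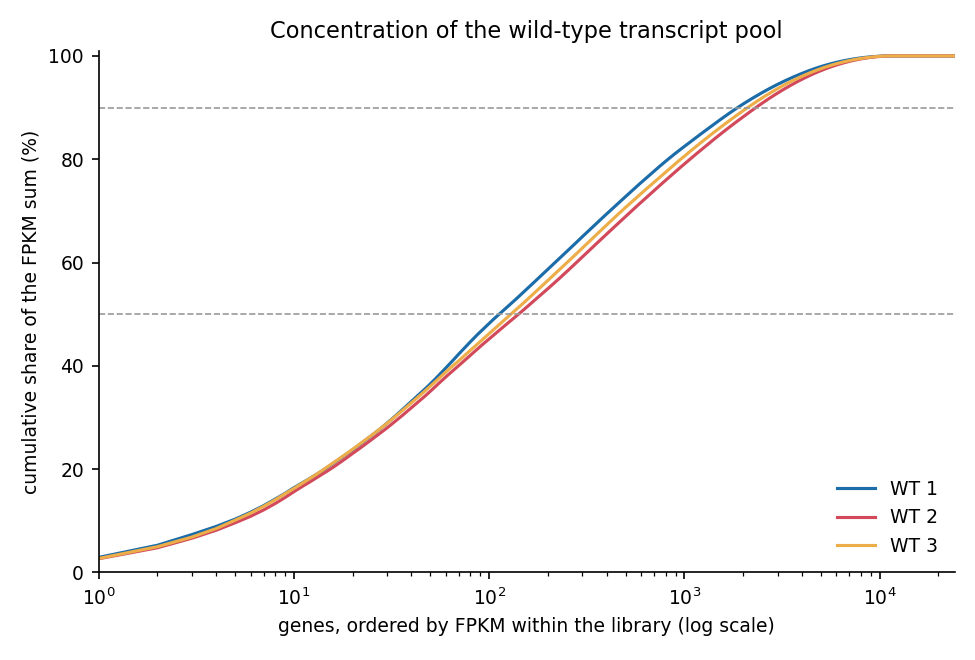
Cumulative share of each library's FPKM sum (percent, y axis) against the number of genes taken from the highest downward (x axis, log scale), 1 line per wild-type library; dashed lines mark 50% and 90%. WT 1 reaches 50% first, with 113 genes, and WT 2 last, with 142.

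Behind Gdf9, the top of the order held genes of several kinds. Zbed3, a protein of the subcortical maternal complex, was at 20902, 10789 and 12166 FPKM, so that it ranked 1 in WT 1 and 3 in the other libraries. Its mean without WT 1 was 11477 FPKM. Ubb, a polyubiquitin gene, followed at 11363, 12442 and 14959 FPKM. Tcl1, a coactivator of the kinase AKT, was at 8914, 9041 and 10843 FPKM and so below Ubb in every library. The other genes of the first 10 were Gm15698, named Elobl in RefSeq, the oocyte linker histone gene H1foo, the homeobox gene Obox2, the Bcl2-family gene Bcl2l10, E330021D16Rik, and Dppa3, whose product shields the maternal genome from demethylation. Their means ran from 9463 down to 7013 FPKM. Gm15698 was at 14822, 6897 and 6669 FPKM, with WT 1 at 2.19 times the mean of the others, whereas for the other 5 of these genes every library lay within 1.5 times of both others.

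**Figure D2:**
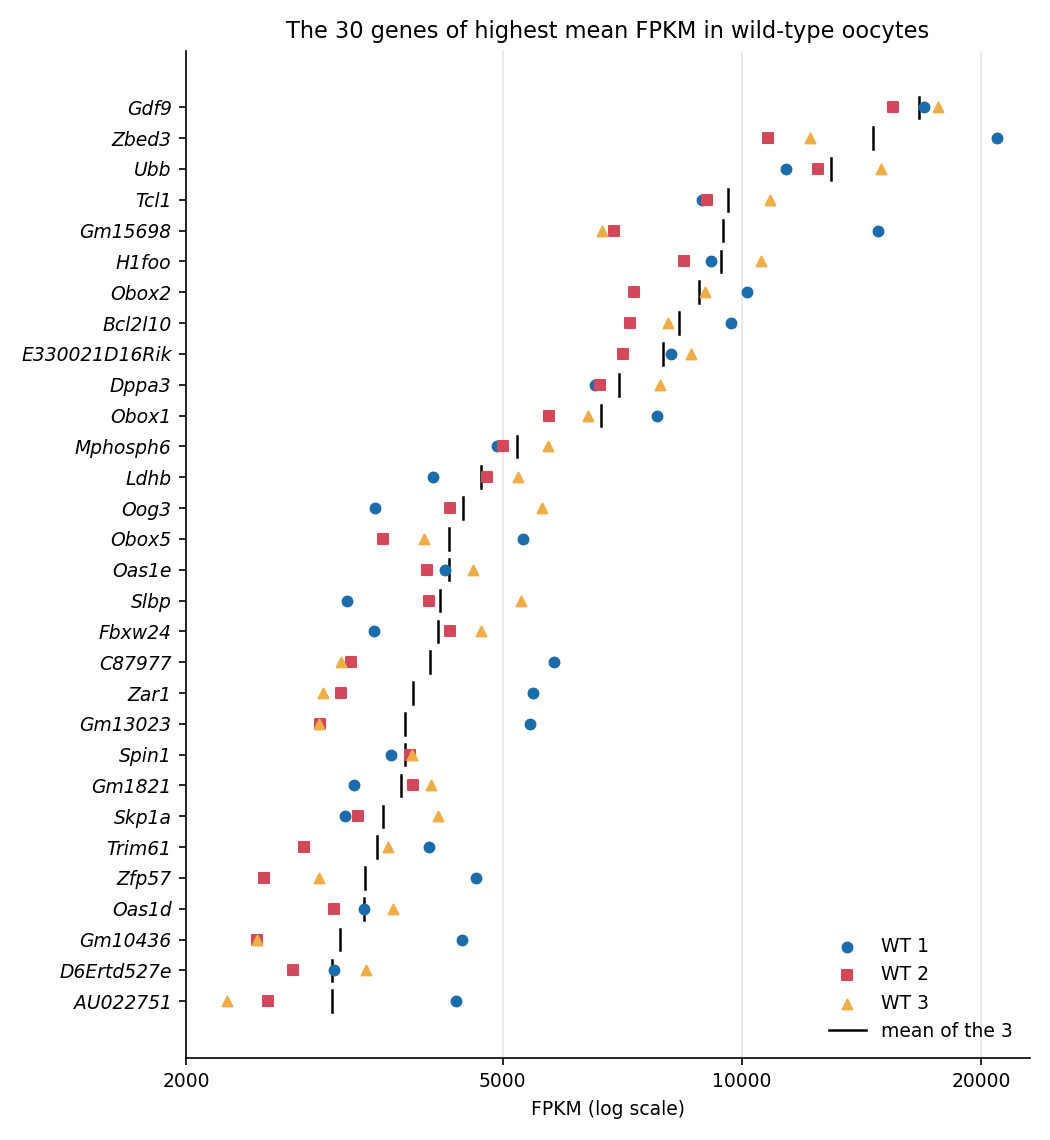
FPKM (x axis, log scale) of the 30 genes of highest mean in WT 1, WT 2 and WT 3 (symbols) with the mean of the 3 (black bar), ordered by the mean. Gdf9 at 16684.5 FPKM leads; WT 1 lies to the right of both other libraries at Zbed3, Gm15698, C87977, Zar1 and Gm13023, and to the left at Oog3, Slbp and Fbxw24.

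Ranks 11 to 30 were held by Obox1, Mphosph6, Ldhb, Oog3, Obox5, Oas1e, Slbp, Fbxw24, C87977, Zar1, Gm13023, Spin1, Gm1821, Skp1a, Trim61, Zfp57, Oas1d, Gm10436, D6Ertd527e and AU022751, with means from 6643 to 3048 FPKM. Mphosph6 belongs to the nuclear RNA exosome, Slbp binds the stem-loop of histone messages, Spin1 reads histone methylation, and AU022751, named Ezhip in RefSeq, inhibits Polycomb repressive complex activity. Spin1 was at 3615, 3828 and 3851 FPKM, a narrow range. Slbp ran the other way from Zar1, at 3189, 4035 and 5274 FPKM with WT 1 lowest. Most neighbours in the order could not be separated. Of the 29 neighbouring pairs among the 30 highest genes, 7 were ordered alike in all 3 libraries, and in 2 of them the gap in means exceeded the spread of both genes: Ubb above Tcl1, by 3322 FPKM against a combined SD of 2138, and Obox1 above Mphosph6, by 1436 against 1151 FPKM. The place of Gdf9 above Zbed3 was not among them, since WT 1 had the reverse order. Membership was steadier than order: 86 genes were among the 100 highest of every library, and 9 of the first 10 were among the first 10 of every library.

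Genes in the lists, which include general ones such as ubiquitin, actin and tubulin genes, made up 43 of the 100 highest. The lists were chosen with earlier results of these data known, so this count rests partly on that choice. Of the 100 highest, 18 carried only a clone, EST or predicted-gene symbol. Neither count was set against its share over all rows, so neither can be called high or low. The lists are described next by role, each with its share of the FPKM sum.

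**Figure D3:**
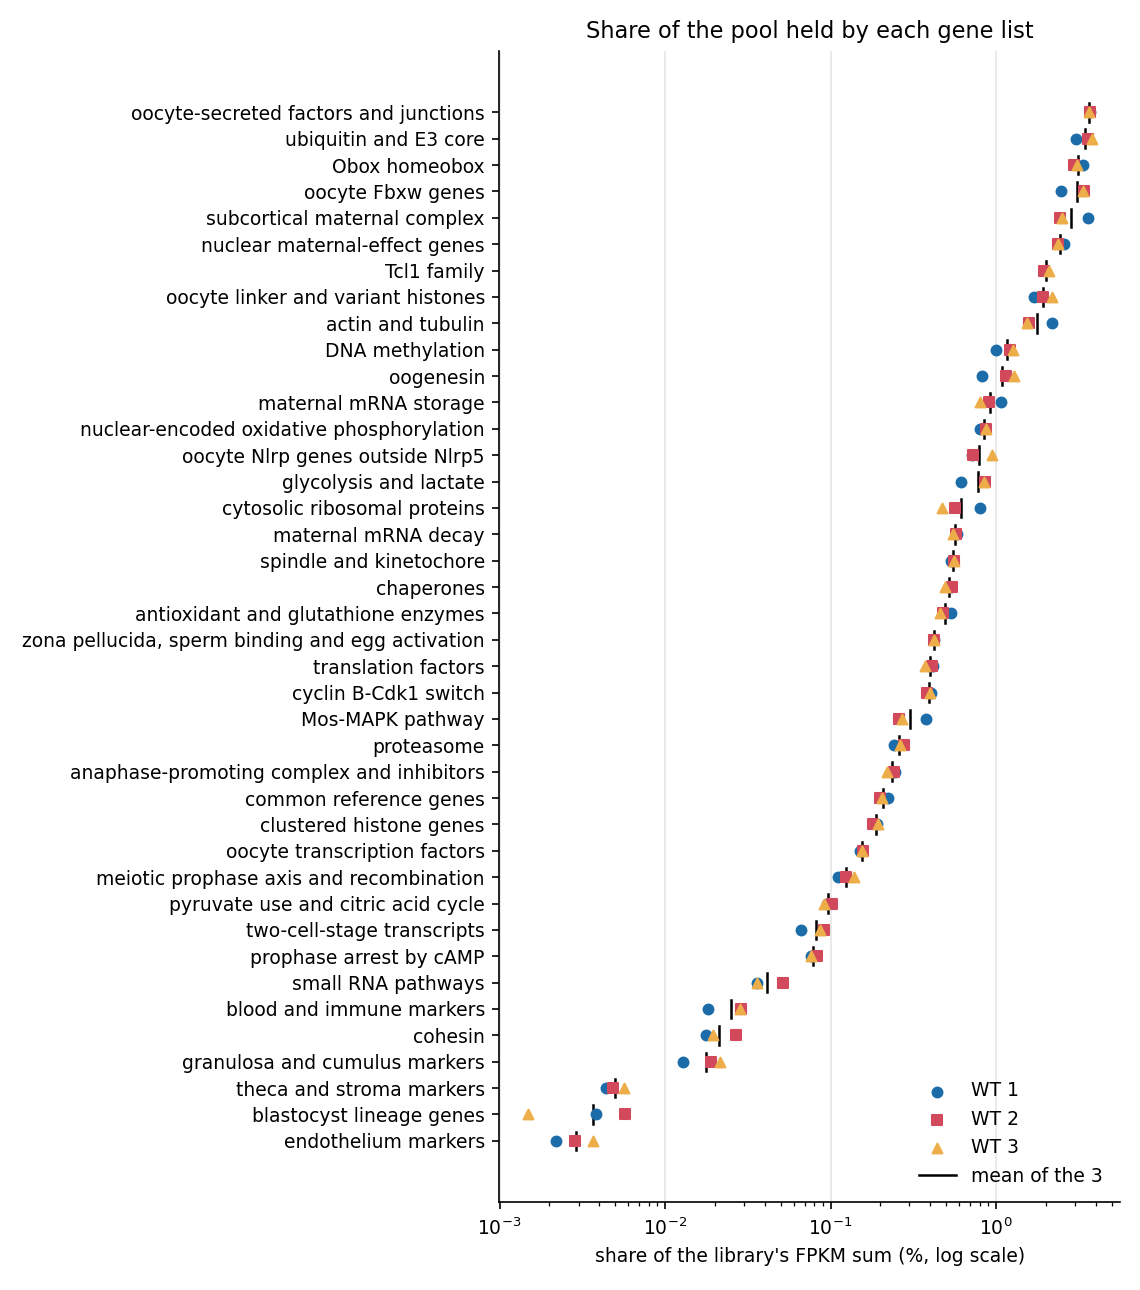
Share of the library's FPKM sum (percent, x axis, log scale) held by each gene list in WT 1, WT 2 and WT 3 (symbols) with their mean (black bar). Lists of oocyte-secreted factors, ubiquitin genes, Obox and Fbxw genes hold over 3% each, and markers of other ovarian cell types lie at or below 0.0252%.

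Signals from the oocyte to its follicle had the largest mean share of any list, although ubiquitin genes held more in WT 3. The 10 genes of secreted factors and gap junctions held 3.70%, 3.67% and 3.64% in the 3 libraries, 69.7% of it in Gdf9. Behind Gdf9 and Bmp15 came Plat, tissue plasminogen activator, at 1700, 1320 and 1569 FPKM. Gja4, the connexin 37 that couples oocyte and granulosa cells, was at 2151, 999 and 997 FPKM. Oosp1, an oocyte-secreted protein, was at 1196, 353 and 343 FPKM, with a coefficient of variation of 77.6% among the largest of any abundant gene. Gja4 and Oosp1 were thus both high in WT 1 and near equal in the other libraries, where their means were 998 and 348 FPKM. Bmp6, another ligand of the same superfamily, was the lowest member at 23.4 FPKM. Kit, the receptor by which the oocyte hears granulosa KIT ligand, was at 48.3 ± 7.37 FPKM.

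Genes of the egg coat, sperm binding and egg activation held 0.422% ± 0.0019 of the pool, a share that differed by under 1% of its value between libraries. Zp3 made up 43.4% of it. Astl, which codes for ovastacin, the protease that hardens the zona after fertilisation, was at 513, 574 and 678 FPKM. Wee2, an oocyte kinase that holds CDK1 inactive, was at 336, 253 and 295 FPKM. Among the zona genes Zp3 was highest at 1194 FPKM, followed by Zp1 at 233 ± 48.7 and Zp2 at 128 ± 23.3 FPKM, and this order held in all 3 libraries. Izumo1r, the sperm receptor Juno, was at 318, 123 and 137 FPKM and was again high in WT 1, without which its mean was 130.1 FPKM. Itpka, an inositol kinase, was listed at 0.

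The subcortical maternal complex is a protein assembly under the oocyte membrane that the embryo needs for its first cleavages. All 7 of its genes exceeded a mean of 100 FPKM, against 3.67% of all rows at 100 FPKM or more. Together they held 3.61%, 2.44% and 2.49% of the pool, 77.6% of it in Zbed3. Khdc3 was at 982, 1024 and 1146 FPKM. Tle6 was at 1257, 766 and 838 FPKM, with a mean of 954 FPKM like that of Ooep. Tle6 was above Ooep in WT 2 and WT 3, and without WT 1 their means were 802 and 586 FPKM. Nlrp5, also called Mater, was at 418, 608 and 1033 FPKM, with WT 1 lowest, so members of this complex did not share 1 pattern across the libraries. Padi6 was at 459 ± 112 FPKM and Nlrp2 lowest at 117 ± 21.3 FPKM. Without WT 1 the share of the list was 2.47%. In the table Zbed3 shares its locus with the small nucleolar RNA gene Snora47, which was listed at 0.

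Other oocyte Nlrp genes, relatives of Nlrp5, held 0.794% ± 0.127. Nlrp14 was the most abundant at 2729, 2233 and 3249 FPKM and ranked 31. Nlrp4f, Nlrp4g, Nlrp4b and Nlrp9b followed at 713, 513, 271 and 251 FPKM, and Nlrp4c was lowest at 6.28 FPKM. All 11 genes of the list with a row were above 0 in all 3 libraries, against 37.4% of all rows.

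Nuclear and cytoplasmic maternal-effect genes outside that complex held 2.44% ± 0.13. Dppa3 was at 6533, 6630 and 7877 FPKM. Zar1, which organises stored maternal messages, was at 5466, 3134 and 2970 FPKM, and Zfp57, a zinc-finger protein that guards imprints, at 4630, 2509 and 2935 FPKM. Both were high in WT 1, and without it their means were 3052 and 2722 FPKM. Zar1l was at 637 ± 49.8 FPKM and Npm2, a nucleoplasmin needed for sperm chromatin remodelling, at 369 ± 82.2 FPKM. Smarca4, the BRG1 remodeller, was lowest at 1.48, 2.93 and 1.35 FPKM.

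DNA methylation genes held 1.16% ± 0.15, of which Dppa3 was 93.4%. The levels of the enzymes were much lower. Dnmt3l, the cofactor of de novo methylation, was at 144, 112 and 176 FPKM, Uhrf1 at 136 ± 32.3 FPKM, the dioxygenase gene Tet3 at 123, 74.1 and 40.4 FPKM and the maintenance enzyme gene Dnmt1 at 104, 76.8 and 43.6 FPKM. The de novo enzyme gene Dnmt3a was at 8.59, 8.52 and 6.42 FPKM. Tet3 and Dnmt1 had the same order of libraries. Tdg was listed at 0.

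Among histone genes, linker and variant genes held the larger share of these poly(A)-primed libraries. The linker and variant list held 1.93% ± 0.24. H1foo was at 9152, 8460 and 10575 FPKM and H3f3b, 1 of the genes for histone H3.3, at 1690, 2081 and 2761 FPKM. H3f3a, the other, was at 819, 288 and 338 FPKM, highest where H3f3b was lowest, and its mean without WT 1 was 313 FPKM. H2afx was at 375 FPKM, H1f0 at 41.5 FPKM and H2afy2 lowest at 1.15 FPKM. The 67 replication-dependent histone genes, whose messages normally lack poly(A) tails, held 0.189% ± 0.0066 together. Priming on poly(A) tails can miss such messages, so their amount relative to the variants cannot be judged here. Of these 67 genes, 32 were listed at 0, a share near the 45.6% over all rows. Hist1h2bc, Hist1h2bg and Hist1h2aa were highest at 406, 205 and 156 FPKM, followed by Hist3h2ba and Hist1h2be at 64.9 and 51.1 FPKM.

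Factors that drive oocyte transcription during growth were moderate in level, 0.154% ± 0.0033 of the pool. Nobox, a homeobox regulator of oocyte genes, was at 370, 337 and 479 FPKM. Sall4 followed at 272, 268 and 203 FPKM and Lhx8 at 211, 123 and 115 FPKM. Tbp, the general TATA-binding protein, was at 75.7 ± 14.1 FPKM, whereas its oocyte relative Tbpl2 was at 5.38 ± 1.12 FPKM. Pou5f1 was at 72.3 ± 27.7 FPKM and Figla, the activator of the zona genes, at 39.2, 50.9 and 39.8 FPKM. Sohlh1, which acts in early follicles, was lowest and above 0 only in WT 1, at 1.82 FPKM.

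Clusters of neighbouring genes, most of them gene families, were a large component. They were defined by distance alone and not by likeness of sequence. With neighbours taken as genes at most 500 kb apart, 26 of the 100 highest genes lay in 6 clusters of 3 or more, and these 26 held 12.5% ± 0.23 of the FPKM sum. Positions are on mm10. The Obox cluster on chromosome 7, from 15388851 to 15759274, held 3.01% ± 0.21 in Obox2, Obox1 and Obox5. The Fbxw cluster on chromosome 9, from 109139454 to 109702700, held 2.71% ± 0.45 in 8 genes. A cluster of oogenesin and other Prame-like genes on chromosome 4, from 143437164 to 144213017, held 2.42% ± 0.15. The Tcl1 cluster on chromosome 12, from 105147019 to 105222737, held 1.86% ± 0.097. The Oas1 cluster of oligoadenylate synthetase relatives on chromosome 5, from 120786312 to 120921648, held 1.82% ± 0.13 in Oas1c, Oas1d, Oas1e and Oas1h. A second region of chromosome 9, from 78311972 to 78378588, held 0.731% ± 0.093 in Omt2a, Omt2b and Ooep. Chromosome 9 carried 15 of the 100 highest genes and chromosome 11, with Gdf9, Ubb and Gm15698, held the largest share of the pool at 12.02% ± 0.31. Chromosome X held 2.32% ± 0.072.

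The Obox family codes for homeobox proteins of oocyte and early embryo. Obox2 was at 10144, 7320 and 8987 FPKM, Obox1 at 7811, 5724 and 6393 FPKM and Obox5 at 5311, 3539 and 3981 FPKM. This order of the 3 genes, and the order WT 1, WT 3, WT 2 from high to low, was the same throughout. The order of the libraries is also that of their FPKM sums. After scaling to equal sums, WT 1 was 1.08, 1.11 and 1.22 times the mean of the other libraries at Obox2, Obox1 and Obox5. Gm4745, named Obox7 in RefSeq, was at 739 ± 144 FPKM, and Obox6 and Obox3 were at 0.58 and 0.50 FPKM, each above 0 in a single library. The whole list held 3.12% ± 0.22. Members of such families are close copies, and no source used here says how reads that match several copies were divided, so the split between members is uncertain.

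All 13 oocyte Fbxw genes, which code for F-box proteins with WD40 repeats, were above 0 in every library, against 37.4% of all rows. They held 2.48%, 3.42% and 3.37% of the pool. Fbxw24 was at 3441, 4294 and 4690 FPKM. Fbxw28, Fbxw14 and Fbxw15 followed at 2651 ± 251, 2540 ± 269 and 2338 ± 171 FPKM. Fbxw18, Fbxw16, Fbxw21 and Fbxw19 stood at 1622, 1601, 1317 and 1300 FPKM. Fbxw17 was far lower, at 8.25 ± 1.00 FPKM. Unlike the Obox genes, this family took its lowest share in WT 1. Its share without WT 1 was 3.39%.

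The 4 oogenesin genes, which belong to the Prame-like family of leucine-rich proteins, held 1.09% ± 0.24. Oog3 was at 3454, 4291 and 5610 FPKM and Oog4 at 1381, 1845 and 2109 FPKM, both lowest in WT 1. Oog2 and Oog1 were at 648 and 171 FPKM, both highest in WT 1. Oog1 shares its locus on chromosome 12 with Gm2042 and other rows, so its level is uncertain. In the chromosome 4 cluster of Oog3 and Oog4, C87977, Gm13023 and Gm13084, named Pramel29, Pramel25 and Pramel26 in RefSeq, were highest in WT 1. C87977 was at 5795, 3219 and 3130 FPKM, Gm13023 at 5411, 2947 and 2939 FPKM and Gm13084 at 2554, 1349 and 1453 FPKM. Genes of a single cluster thus differed in opposite directions between the same libraries. Counting the Oog and Pramel symbols of RefSeq, a grouping made after the values were seen, 7 of the 100 highest genes belonged to this family and held 3.24% ± 0.23.

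All 6 genes of the Tcl1 family were above a mean of 100 FPKM, against 3.67% of all rows at 100 FPKM or more. They held 2.004% ± 0.074, of which Tcl1 was 73.4%. Tcl1b1 was at 2350, 1044 and 1121 FPKM and Tcl1b2 at 1472, 627 and 878 FPKM. Tcl1b3, Tcl1b4 and Tcl1b5 were at 521, 341 and 127 FPKM. The 5 Tcl1b genes were all highest in WT 1, whereas Tcl1 itself was highest in WT 3.

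A TATA-like run was frequent in the promoters of some of the clusters. RefSeq promoters on GRCm38.p6, from 250 bases before to 50 bases after the start, were matched to 80 of the 100 highest genes and to 17974 of all rows, with the first listed start taken for each gene. The gene's strand was searched from 45 to 11 bases before the start for 4 TATA-like runs. They were TATAAA, the run TATATA, the run TATAAG and the run TTTAAA, which can overlap each other. At least 1 run was in 19 of the 80 promoters, or 23.8%, against 6.64% over all rows and 5.68% of all 32851 promoters of the table. In the clusters it was in 13 of 24, or 54.2%, and outside them in 6 of 56, or 10.7%. The share was 2.87% at ranks 1001 to 5000 and 10.5% in rows listed at 0. The 13 were 6 Fbxw genes, 4 Oog or Prame-like genes, 2 Obox genes and Oas1h, and none of the matched promoters of the Tcl1 cluster or of the Omt2a, Omt2b and Ooep cluster had a run. Many clustered genes are copies of each other and so are not independent cases.

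The 60 bases before the start show how far the copies agree. They are printed for 3 Fbxw genes, 3 oogenesin or Prame-like genes and 2 Obox genes, with the TATA-like run in capitals.
Fbxw24: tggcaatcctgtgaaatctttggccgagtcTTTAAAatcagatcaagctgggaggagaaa
Fbxw28: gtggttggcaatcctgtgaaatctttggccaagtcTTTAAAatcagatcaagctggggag
Fbxw15: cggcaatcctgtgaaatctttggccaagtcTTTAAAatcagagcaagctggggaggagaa
Oog3: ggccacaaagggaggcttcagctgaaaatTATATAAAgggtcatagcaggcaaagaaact
C87977: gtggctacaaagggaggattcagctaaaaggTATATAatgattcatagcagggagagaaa
Oog4: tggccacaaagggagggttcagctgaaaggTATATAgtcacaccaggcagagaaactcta
Obox1: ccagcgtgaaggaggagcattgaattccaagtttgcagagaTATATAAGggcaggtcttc
Obox5: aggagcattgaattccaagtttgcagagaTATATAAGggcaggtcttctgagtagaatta

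These stretches lie on chr9:109626060-109626119, chr9:109339660-109339719 and chr9:109568263-109568322 for the Fbxw genes, all on the minus strand. The next 3 are chr4:144162652-144162711, chr4:144213018-144213077 and chr4:143450325-143450384, also on the minus strand, and the Obox pair is chr7:15547197-15547256 and chr7:15750310-15750369 on the plus strand. Obox1 and Obox5 had an unbroken run of 48 identical bases, offset against each other because the annotated starts differ. The 6 Fbxw promoters with a TTTAAA run, the 3 above and those of Fbxw14, Fbxw16 and Fbxw21, shared a run of 16 bases that contains it. The 4 Oog and Prame-like promoters with a run, Gm13084 the fourth, shared at most 9 bases in 1 piece. As listed, Obox1 was above Obox5 in every library, and Oog3 was above Oog4 in every library. The split of reads between close copies is uncertain, and a relation between promoter sequence and level was not tested.

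Outside the clusters, the 6 promoters with a TATA-like run in the searched window were those of Zbed3, Bmp15, Zp3, H3f3b, Tubb2a and C86187, a noncoding RNA. The first 3 are shown because they code for the complex subunit, the growth factor and the zona protein described above. Of the other oocyte markers, Ooep had no run and Gdf9 had no matched promoter. In the Zp3 promoter the capitals also mark an E-box, a site for basic helix-loop-helix factors.
Zbed3: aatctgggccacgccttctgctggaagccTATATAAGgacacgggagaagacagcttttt
Bmp15: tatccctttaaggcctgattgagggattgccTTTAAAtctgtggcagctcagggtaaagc
Zp3: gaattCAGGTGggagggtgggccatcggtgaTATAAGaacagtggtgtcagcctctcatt

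The positions are chr13:95323545-95323604 on the plus strand for Zbed3, for which 3 starts are listed, chrX:6320725-6320784 on the minus strand for Bmp15 and chr5:135980045-135980104 on the plus strand for Zp3. In all 3 the run begins 29 to 31 bases before the start. E-boxes of the forms CAGCTG and CACCTG, searched on both strands of the 250 bases before the start, were in 33.8% and 38.8% of the promoters of the 100 highest genes, against 12.2% and 16.7% over all rows. Of the 27 promoters with CAGCTG 14 were in the clusters, and of the 31 with CACCTG 8 were. The run GGGCGG, a GC-box, was in 33.8% of the promoters of the highest 100, against 43.1% over all rows and 59.4% at ranks 1001 to 5000. Within the highest 100 it was in 16.7% of the promoters in the clusters and 41.1% of those outside them. CpG dinucleotides numbered 2 in the median promoter of the clustered genes, 16.5 in the other genes of the highest 100, 21 at ranks 1001 to 5000 and 4 in rows listed at 0. A match is only a match of letters, and binding was not measured.

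**Figure D4:**
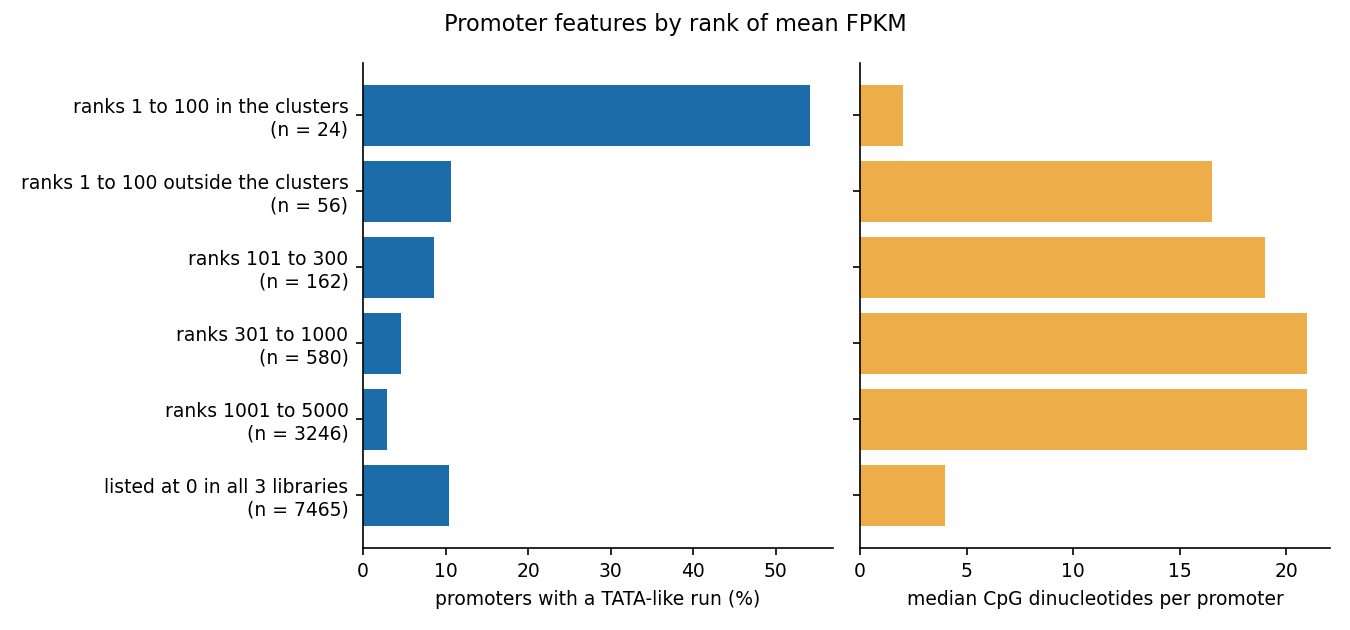
Left, percent of RefSeq promoters with a TATA-like run 45 to 11 bases before the start; right, median number of CpG dinucleotides in the 300 bases of the promoter, for genes grouped by rank of mean FPKM (n, promoters matched). Clustered genes of the highest 100 stand at 54.2% and 2 CpG, the other genes of the highest 100 at 10.7% and 16.5.

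Ubiquitin and the core of the ubiquitin ligases held 3.46% ± 0.39. Ubb was 57.6% of it. The row Gm1821, a Ubb pseudogene listed at the same locus as Ubb, was at 3251, 3860 and 4068 FPKM, and reads of the pair may not be separable. Skp1a, the adaptor that joins F-box proteins to their ligase, was at 3165, 3293 and 4150 FPKM. Ube2d3, an E2 enzyme, was at 1951 ± 113 FPKM and Rnf114 at 758 FPKM. Uchl1, a deubiquitinase abundant in oocytes, was at 1875, 855 and 708 FPKM and was high in WT 1, while its antisense row Uchl1os was at 0.49 FPKM. Proteasome genes held 0.261% ± 0.017. Psma2, Psmd4, Psmd8, Psmb1 and Psmb2 had the highest means at 157, 116, 109, 107 and 104 FPKM.

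The genes of meiotic arrest and resumption were present at graded levels. For arrest by cyclic AMP the list held 0.0784% ± 0.0036, with Wee2 highest, Gnas, the stimulatory G protein, at 116 FPKM, Prkar1a at 36.3 FPKM and Gpr3, the receptor that keeps cyclic AMP up, at 34.3, 25.8 and 32.2 FPKM. Prkar2a was at 9.56 FPKM and Adcy3 was listed at 0. The cyclin B and CDK1 switch held 0.395% ± 0.0098. Ccnb1 was at 886, 805 and 974 FPKM and Ccnb2 at 69.5, 87.0 and 125 FPKM, so that cyclin B1 messages were the higher of the pair in every library. Cks1b and Cks2, small subunits of CDK1, were at 556 and 473 FPKM, Aurka at 248 ± 34.7 FPKM and Cdc25c lowest at 2.23 FPKM. Mos, which starts the MAP kinase cascade of the maturing egg, was at 2260, 1193 and 1369 FPKM, and was 80.6% of a list that held 0.302% ± 0.065. Map2k1 was at 198 FPKM, Mapk3 at 145 FPKM, Map2k2 at 6.39 FPKM and Rps6ka2 lowest at 0.40 FPKM.

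Genes of the anaphase-promoting complex and its inhibitors held 0.235% ± 0.014. Pttg1, securin, was highest at 548, 377 and 384 FPKM. The subunit gene Anapc16 was at 230 FPKM and Fbxo5, the inhibitor EMI1, at 202 ± 29.6 FPKM. Ube2c was at 163 FPKM and Anapc15 at 109 FPKM, while Cdc23 was listed at 0. Spindle and kinetochore genes held 0.551% ± 0.013 of the pool. Birc5, survivin, was 50.2% of it at 2002, 1595 and 1815 FPKM. Tacc3, Mad2l1, Spc25 and Nusap1 were at 277, 261, 219 and 193 FPKM and Kif11 was lowest at 3.89 FPKM. Cohesin genes held 0.0213% ± 0.0048, with Wapal at 48.0 FPKM and Sgol1, Sgol2a, Rad21 and Smc3 at 21.8, 20.1, 19.9 and 11.8 FPKM. Rec8, the meiotic kleisin, was listed at 0. Genes of the meiotic prophase axis and recombination held 0.124% ± 0.014, 91.0% of it in Syce2, a central element gene, at 755, 646 and 805 FPKM. Tex12, Sycp3 and Msh4 were at 44.9, 10.9 and 5.54 FPKM. Of 20 members 6 were listed at 0, Spo11, Prdm9 and Syce3 among them, against 45.6% of all rows.

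Messages for storing and destroying RNA were of unequal abundance. The storage list held 0.925% ± 0.14. After Zar1 and Zar1l came Cpeb1, the protein that binds polyadenylation elements, at 585, 539 and 578 FPKM, Pabpn1l at 291, 394 and 479 FPKM and Dazl at 140 ± 18.2 FPKM. Cpeb2 was lowest, above 0 only in WT 2 at 0.31 FPKM. In the decay list, 0.569% ± 0.017 of the pool, Btg4, an adaptor that brings the CCR4-NOT deadenylase to maternal messages, made up 72.4% at 3068, 2305 and 2693 FPKM. The deadenylase genes Cnot7 and Cnot8 were at 383 and 105 FPKM, Dcp1a at 205.9 FPKM, Ythdf3 at 73.3 FPKM and Zcchc11 lowest at 0.23 FPKM. Small RNA pathway genes held 0.0414% ± 0.0091, with Henmt1 at 62.4 FPKM, Tdrd1 at 53.9 FPKM, Asz1 at 46.2 FPKM and Dicer1 at 33.6, 36.9 and 33.2 FPKM. Tarbp2 was at 25.6 FPKM and Piwil4 was listed at 0.

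Cytoskeletal genes held 1.76% ± 0.36. Tubb4b, a beta-tubulin, was at 3814, 1544 and 1564 FPKM, Cfl1, cofilin, at 2200, 1197 and 1332 FPKM and Tubb2a at 1683, 819 and 766 FPKM. Tmsb10, an actin monomer binder, was at 1153, 1292 and 1299 FPKM and Tubb6 at 921 FPKM. All but Tmsb10 were highest in WT 1. Without it the list held 1.56% and Tubb4b had a mean of 1554 FPKM. Tubb4b at 2307 FPKM stood far above Actb at 64.1 FPKM.

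Genes of the translation machinery took a small part of the listed FPKM sum. The 85 cytosolic ribosomal protein genes held 0.805%, 0.565% and 0.473%, with a median of 12.9 FPKM. Rpl41 was at 984, 377 and 360 FPKM, Rpl36al at 798, 359 and 340 FPKM and Rplp1 at 438, 154 and 174 FPKM. The list was high in WT 1, and its share without WT 1 was 0.519%, with means of 368 FPKM for Rpl41 and 164 FPKM for Rplp1. Rpl39 and Rpl32 were at 371 and 267 FPKM. Of the 85 genes 16 were listed at 0 in all 3 libraries, Rpl30, Rps12 and Rps27 among them, although every cell uses them, so an entry of 0 in this table cannot be read as absence. The translation factors held 0.3999% ± 0.022. Eif5a was at 539 ± 70.3 FPKM, the cap-binding Eif4e at 424 FPKM and Eef1a1 at 447, 200 and 137 FPKM, with Eif1 and Eif1ax at 209 and 205 FPKM. Without WT 1 the mean of Eef1a1 was 168 FPKM. Chaperones held 0.522% ± 0.026, led by Hsp90aa1 at 672, 473 and 390 FPKM, Dnajb4 at 491 FPKM, Dnajb6 at 358 FPKM, Hspa8 at 204 FPKM and Dnajc8 at 200.5 FPKM.

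The mouse oocyte burns pyruvate and uses little glucose. Ldhb, which interconverts lactate and pyruvate, was at 4083, 4772 and 5230 FPKM and made up 94.0% of the glycolysis and lactate list, 0.774% ± 0.14 of the pool. Pkm was at 165 FPKM, Aldoa at 47.0 FPKM, Tpi1 at 45.8 FPKM and the glucose transporter gene Slc2a1 at 18.7 FPKM. Ldha, the other common subunit of lactate dehydrogenase, was at 0, 4.89 and 1.69 FPKM. Pyruvate use and the citric acid cycle held 0.0961% ± 0.0055, with Cs, citrate synthase, at 202, 109 and 89.7 FPKM, and Dld, Mdh2, Dlst and Idh3a at 79.4, 72.5, 54.9 and 39.6 FPKM. Nuclear genes for oxidative phosphorylation held 0.846% ± 0.036, with Cox7a2l at 563 FPKM, Sdhd at 354 FPKM, Cox6a1 at 322 FPKM, Cox8a at 283 FPKM and Uqcr10 at 275 FPKM. Mitochondrially encoded genes have no rows in the table. Antioxidant genes held 0.493% ± 0.039, 44.9% of it in Glrx, glutaredoxin, at 1682, 1183 and 1481 FPKM. Prdx1, G6pdx, Prdx2 and Txn2 were at 508, 354, 332 and 241 FPKM.

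Genes often used as references in other tissues were spread over the whole range. They held 0.209% ± 0.013. Ywhaz was at 279, 214 and 268 FPKM and Hprt at 116, 103 and 147 FPKM. B2m and Tbp were at 103 and 75.7 FPKM. Actb, beta-actin, was at 57.8, 49.6 and 84.8 FPKM. Gapdh was listed at 0 in WT 1 and WT 2 and at 2.09 FPKM in WT 3, and Gusb was lowest at 0.62 FPKM. Gapdh has many processed copies in the mouse genome, so its value is uncertain.

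Most genes of later stages had low values or entries of 0, which cannot be read as absence. Of 20 genes with a row from the list of transcripts that mark the embryo's first wave of transcription, 12 were listed at 0, Dux and Zfp352 among them. Over all rows, 45.6% were listed at 0 in all 3 libraries. Tcstv1 was the exception at 391, 398 and 456 FPKM, followed by Tcstv3 at 98.2 FPKM, while Zscan4d, Zscan4c and Eif1a were at 3.16, 2.70 and 1.73 FPKM. The list held 0.0812% ± 0.013. Blastocyst lineage genes held 0.00368% ± 0.0021, with Tfap2c at 12.4 FPKM, Gata4 at 7.36 FPKM, Klf4 at 3.33 FPKM and Cdx2, Nanog, Eomes and Tead4 listed at 0.

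The spread between libraries was smaller for genes of more fragments. Across the 9743 genes with a mean of at least 1 FPKM, Pearson's r of log2(FPKM + 1) was 0.907 for WT 1 and WT 2, 0.905 for WT 1 and WT 3 and 0.903 for WT 2 and WT 3, with Spearman's rho of 0.877, 0.870 and 0.871. These describe genes within libraries, and genes are not replicates. The median coefficient of variation over the 3 libraries fell from 86.7% at 1 to 3 estimated fragments to 16.1% at 1000 and over, where counting alone gives 2.10%. From 3 to 10 fragments, counting alone gave 42.9% and the observed median was 44.1%. The share of genes whose coefficient exceeded the counting value was 53.0% at 3 to 10 fragments and 100% at 1000 and over. These coefficients are on FPKM not scaled to equal sums. They include the spread of the FPKM sums, which had an SD of 67110 on a mean of 652537. The fragment numbers are rough, and fewer fragments would raise the counting values.

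**Figure D5:**
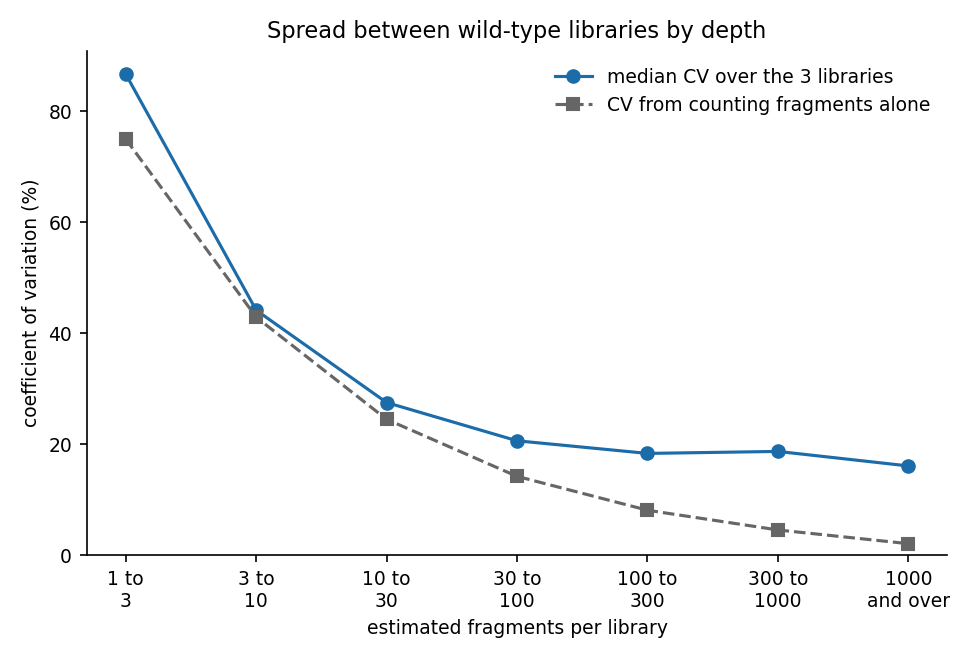
Median coefficient of variation over WT 1, WT 2 and WT 3 (percent, blue) and the coefficient that counting fragments alone gives (percent, grey) for genes grouped by estimated fragments per library (x axis). The lines lie close at 3 to 10 fragments, 44.1% against 42.9%, and part above 30, reaching 16.1% against 2.10%. FPKM was not scaled to equal sums, so the blue line includes differences in library total.

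Among the 890 genes of at least 100 FPKM, 493 had a coefficient of variation under 20% and 41 over 50%. Adss, an enzyme of AMP synthesis, had the smallest coefficient at 429, 429 and 434 FPKM. Ccdc6, Stx12, Isca1 and Pecr followed with coefficients of 0.70% to 1.72%, and Ccdc6 was at 329, 333 and 334 FPKM. Counting alone gives 4.57% at 300 to 1000 fragments, where Adss, Ccdc6 and Isca1 lie. It gives 8.12% at 100 to 300 fragments, where Stx12 lies, and 14.2% at 30 to 100, where Pecr lies. All 5 coefficients are below these values, so with 3 libraries they do not mark these genes as steadier than others. At the other end, after Rn45s, stood Oosp1, Pnrc1, Txnip and Speer5-ps1. Pnrc1, a nuclear receptor coregulator, was at 446, 135 and 126 FPKM. Txnip, the thioredoxin-interacting protein, was at 1079, 389 and 287 FPKM. Speer5-ps1, a transcribed pseudogene, was at 2277, 739 and 762 FPKM. In each of these 5 rows WT 1 was the high library, and without it the means of Pnrc1, Txnip and Speer5-ps1 were 131, 338 and 750.1 FPKM. Among the 100 highest genes WT 1 was the highest library at 60, WT 3 at 40 and WT 2 at none. These counts are on FPKM not scaled to equal sums, and WT 2 had the lowest FPKM sum, so they partly follow the totals.

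Transcripts of the most abundant genes were shorter than those at middle ranks. The longest annotated transcript had a median length of 1793 bases for the 100 highest genes, 2772 bases at ranks 1001 to 5000 and 2526.5 bases over all rows, and the median number of exons was 4, 8 and 6. It was 1824 bases with 4 exons in the next 200 ranks and 1842 bases with 4 exons in rows listed at 0, so length did not set the highest 100 apart from these. Of the 99 genes of the highest 100 with an annotated transcript 93 were protein coding, and 2 had a single exon. FPKM divides by length, so the same number of fragments gives a short transcript the higher level. Weighted by length instead, as a share of fragments, the 100 highest genes held 42.8% of the pool, and 81 genes were among the highest 100 on both scales.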

How the data were processed

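Poly(A)-primed, Smart-seq2-amplified RNA of 3 wild-type oocyte libraries was sequenced as paired reads of 150 bases on an Illumina HiSeq X instrument, per the labels' protocols and the series' design text. Per the submitters' processing notes, the authors aligned reads to mm10 with TopHat2 2.0.13 and deposited FPKM values per gene from Cufflinks 2.2.1. The gene annotation, the handling of reads with several matches and the use of strand are not known here. Priming on poly(A) tails favours messages with long tails, and stored oocyte messages can have short ones.

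Of 24255 rows, 27 whose symbols had turned into dates were left out. The other 24228 were ranked by mean FPKM, and shares are percentages of each library's FPKM sum. Of them 99.5% matched RefSeq coordinates and 98.5% a GENCODE transcript, whose longest form gave the length. The step worth 1 fragment was estimated from low FPKM values of genes with a single annotated transcript of at least 1500 bases. Of values below 1.5 fragments, 85.3%, 79.0% and 79.9% lay within 15% of 1 fragment. Each gene's FPKM times its transcript length was divided by this step to give its fragments. A gene of 1 kb gains 2.07, 2.25 or 2.33 FPKM per fragment, which limits precision at low levels and covers counting error only. A total of 5702 rows, 11 of them among the 100 highest, share a deposited locus with another row.

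Only a single group was described, so no test was made and values carry the SD over 3 libraries. Genes were named by rule: the 30 highest, the 4 markers, the 5 highest and, for oocyte roles, the lowest member of each list, the 5 genes each of smallest and largest coefficient of variation among those of at least 100 FPKM, and the clustered genes of the highest 100; a few others serve as comparisons and were chosen after their values were seen. A few genes that this rule names are not reported here. The members and lists were chosen with earlier results of these data known. Python 3.11.15, numpy 2.4.6, pandas 2.3.3 and matplotlib 3.10.9 were used, and the statistics were tested on simulated data. For depth, that test covered the total given by the step size alone and not the sum of fragments over genes. Alternatives covered scaling, summary, length weighting, filters, overlapping rows and each library left out.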

Additional observations from a re-analysis of the deposited data

How the results depend on the processing

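The concentration of the pool kept within 1.5 times of its value in all alternatives run: 104 to 167 genes held 50% of the sum, against 129. The share of the 10 highest genes was 15.1% with weighting by length, 16.8% among protein-coding genes and 16.5% without rows that share a locus, against 16.0%. The share of the 100 highest was 42.8% with weighting by length and 49.3% without rows that share a locus, against 46.3%. With each library left out in turn these shares ran from 15.9% to 16.2% and from 45.7% to 46.9%, and 93 to 99 of the 100 highest genes were kept. A threshold of 5 FPKM in place of 1 left 5983 genes in place of 9743. With a pseudocount of 0.1, Pearson's r was 0.794, 0.802 and 0.786 for WT 1 with WT 2, WT 1 with WT 3 and WT 2 with WT 3, and over all rows it was 0.952, 0.952 and 0.951; a small pseudocount stretches values near 0, and all rows include those at 0 in every library. Weighting by length changed the share of 15 of 41 lists by over 1.5 times, since it counts fragments and not transcripts. Leaving out rows that share a locus did so for 3 lists: the share of the subcortical maternal complex became 0.754% without Zbed3, that of the ubiquitin genes 1.40% without Ubb, and the prophase list lost Syce2. Leaving out WT 1 lowered the mean of 10 of 163 named genes of at least 100 FPKM by over 1.5 times. They were Rn45s, Speer5-ps1, Ooep, Oosp1, Txnip, Rpl41, H3f3a, Eef1a1, Rplp1 and Pnrc1. Leaving out WT 2 or WT 3 moved none of the 163 that far. The mean of 3 values cannot rise by over 1.5 times when 1 is left out. It falls that far only where the value left out is far the highest, so this count cannot show genes at which a library was low. Leaving out the row Rn45s, chosen after seeing the data, changed none of the concentration values beyond the spread between libraries. No paired analysis was possible because a single group is described. At these depths 1 fragment decides whether a gene near 1 FPKM is listed above 0.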
